A study of Mus musculus with 72 samples.

Results

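The CDC-like kinases Clk1, Clk2, Clk3 and Clk4, the splicing activators Tra2a and Tra2b, and the splicing regulators Rbm5 and Rbm39 were followed through the nucleus, cytosol and membranes of mouse embryonic stem cells. The 8 genes were chosen by name, because their transcripts are known for introns that stay in polyadenylated nuclear RNA, and were found by symbol among 51826 genes with read counts and 30099 genes with T counts. The cells were E14TG2a, an established mouse embryonic stem cell line, grown in medium with LIF and the 2 inhibitors called 2i. No allele or drug differed between the samples. All cells received 4-thiouridine (4sU), a uridine analog that is built into newly made RNA and is read as a T-to-C conversion after alkylation with iodoacetamide, and all were lysed in buffers with cycloheximide. Each culture was split into whole cells, a cytosolic fraction released by digitonin, a membrane fraction released by NP-40, and a nuclear fraction of the insoluble rest.

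Labeling lasted 15, 20 and 30 min in replicates 1 and 2, 20, 40, 60 and 120 min in replicates 3 and 4, and 60 and 120 min in replicates 5 and 6. The labels give 500 µM 4sU up to 40 min and 100 µM for 60 and 120 min. The methods list more cultures at 500 µM for 60 min than these labels do, and the conversion rates of the 60 min libraries were 5.83 to 8.29% in replicates 3 and 4 against 2.38 to 3.99% in replicates 5 and 6. Of 72 libraries, the main comparisons omit 8, those labeled for 120 min in replicates 3 and 4, and use 64 (16 per fraction, from 16 cultures). The study excluded long labeling at the higher dose. That this means these libraries is inferred here from their conversion rates of 8.83 to 12.2%, since their labels give the lower dose. The pairs of replicates 1 and 2, 3 and 4, and 5 and 6 differed in their labeling times and could differ in dose, so time and pair cannot be told apart outside the times they share.

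The libraries held 13185351 to 52975732 reads on genes. The embryonic stem cell genes Pou5f1, Sox2, Nanog, Zfp42 and Esrrb were detected in every library used, the lowest value being 139 CPM (the read count scaled to library size) for Sox2 in the membrane fraction. The nuclear RNA Malat1 had a median of 915 CPM in nuclear and 116 in cytosolic libraries, and the secretory mRNA Hspa5 had 2097 CPM at the membrane and 79.9 in the cytosol. In whole cells, the library labelled 60 min of replicate 6 had a higher share of new exonic RNA (median of all genes 0.389) than the library labelled 120 min of that replicate (0.180), whereas in replicate 5 the values were 0.224 and 0.404. These 2 libraries go against their labels. Whole-cell ratios, half-lives and level differences that use them are given with and without replicate 6, while counts of cultures and the figures include it.

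CLK kinases phosphorylate the arginine- and serine-rich proteins that choose splice sites, and so control when those proteins leave nuclear speckles and engage pre-mRNA. Transcripts of the kinases, of Tra2 proteins and of several RNA-binding proteins belong to a class in which single introns are spliced late. Such detained introns sit in polyadenylated transcripts that stay in the nucleus, unlike most retained introns, which are exported and destroyed. In Clk1 and Clk4 the detained introns flank exon 4, and skipping of this exon shifts the reading frame before the kinase domain. Tra2a and Tra2b limit their own expression through poison exons, which carry stop codons.

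The exons numbered 4 in the kinases are shown first, because coverage of this exon in Clk1 and Clk2 differed between nucleus and cytosol, with the exons of Clk3 and Clk4 for comparison. They are taken from GENCODE transcripts on GRCm38, with chr1:58420121-58420211 (minus strand) for Clk1, chr3:89169618-89169702 (plus) for Clk2, chr9:57758627-57758723 (minus) for Clk3 and chr11:51273078-51273168 (plus) for Clk4. Capitals mark runs of at least 7 bases that occur also in the Clk1 exon, which is itself in lower case.
Clk1 exon 4: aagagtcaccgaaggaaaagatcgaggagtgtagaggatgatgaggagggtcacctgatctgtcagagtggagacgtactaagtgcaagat
Clk2 exon 4: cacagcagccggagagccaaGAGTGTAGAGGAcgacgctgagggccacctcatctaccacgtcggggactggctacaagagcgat
Clk3 exon 4: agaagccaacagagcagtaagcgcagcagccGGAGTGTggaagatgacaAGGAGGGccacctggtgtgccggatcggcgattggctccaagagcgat
Clk4 exon 4: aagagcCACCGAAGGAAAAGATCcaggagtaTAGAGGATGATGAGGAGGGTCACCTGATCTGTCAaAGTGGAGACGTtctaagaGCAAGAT
These exons are 91, 85, 97 and 91 bases long, and each length leaves a remainder of 1 after division by 3, so that losing any of them changes the frame. Clk1 and Clk4 were identical at 85 of 91 aligned positions of exon 4 (93.4%), against 64.1% in exon 3 and 76.1% in exon 5. Every other pair of the kinases had 63.6 to 66.3% identity in exon 4.

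The 8 genes lie on 7 chromosomes of GRCm38, namely Clk1 on chr1:58410189-58424066, Clk2 on chr3:89164795-89176921, Clk3 on chr9:57750624-57765860, Clk4 on chr11:51261730-51281766, Tra2a on chr6:49243924-49264033, Tra2b on chr16:22244549-22266005, Rbm5 on chr9:107740371-107770996 and Rbm39 on chr2:156147239-156180238. Clk4 overlaps the small RNA gene Gm25082 on its own strand. Clk3, Clk4, Tra2a and Rbm5 also overlap a gene on the other strand, and the library kit kept the strand. The annotation of each gene includes transcripts with a retained intron. For Clk1, the exons of all annotated transcripts cover 8132 bases and those with deposited T counts 1796 bases. A read count can therefore include reads from annotated retained introns, and Clk1 and Clk4 share long identical runs over which short reads can be ambiguous.

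Reads of most of these genes were more abundant in the nucleus than in the cytosol, and Clk1 stood highest. CPM values express a gene relative to the other RNA of the same fraction, so they do not give copies per cell, and fewer cells and less RNA per cell cannot be told apart. Clk1, whose protein phosphorylates SR proteins, had 142, 235 and 487 CPM in the nucleus (lowest, median and highest of 16 libraries) and 56.3, 69.1 and 82.5 CPM in the cytosol. Its ranges did not overlap, and the nuclear library was higher in 16 of 16 cultures. The share of all genes whose ranges do not overlap between fractions is not given here, so ranges without overlap set no gene apart. For Clk2 the nuclear values were 62.7, 133 and 193 CPM against 31.1, 41.1 and 47.5 in the cytosol, again without overlap. Clk4, the closest relative of Clk1 among them, had 34.7, 76.3 and 108 CPM in the nucleus against 25.8, 29.5 and 35.9 in the cytosol. The lowest nuclear library of Clk4 lay below its highest cytosolic library, although within each culture the nucleus was higher. Clk3 had 62.5, 75.1 and 82.7 CPM in the nucleus against 42.7, 54.9 and 62.1 in the cytosol, a smaller step that was still seen in 16 of 16 cultures.

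The RNA-binding proteins went different ways. Rbm5, a regulator of alternative splicing in apoptosis genes, had 103, 141 and 175 CPM in the nucleus against 47.1, 58.5 and 65.6 in the cytosol. Rbm39, a U2AF-related splicing factor, had 485, 673 and 1160 CPM in the nucleus against 375, 441 and 567 in the cytosol, with overlapping ranges. Tra2a had 148, 236 and 347 CPM in the nucleus against 170, 192 and 246 in the cytosol, and its nuclear value was the higher one in 9 of 16 cultures. Tra2b was the reverse of the kinases, since its 219, 270 and 353 CPM in the nucleus lay wholly below its 363, 403 and 617 CPM in the cytosol.

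**Figure D1:**
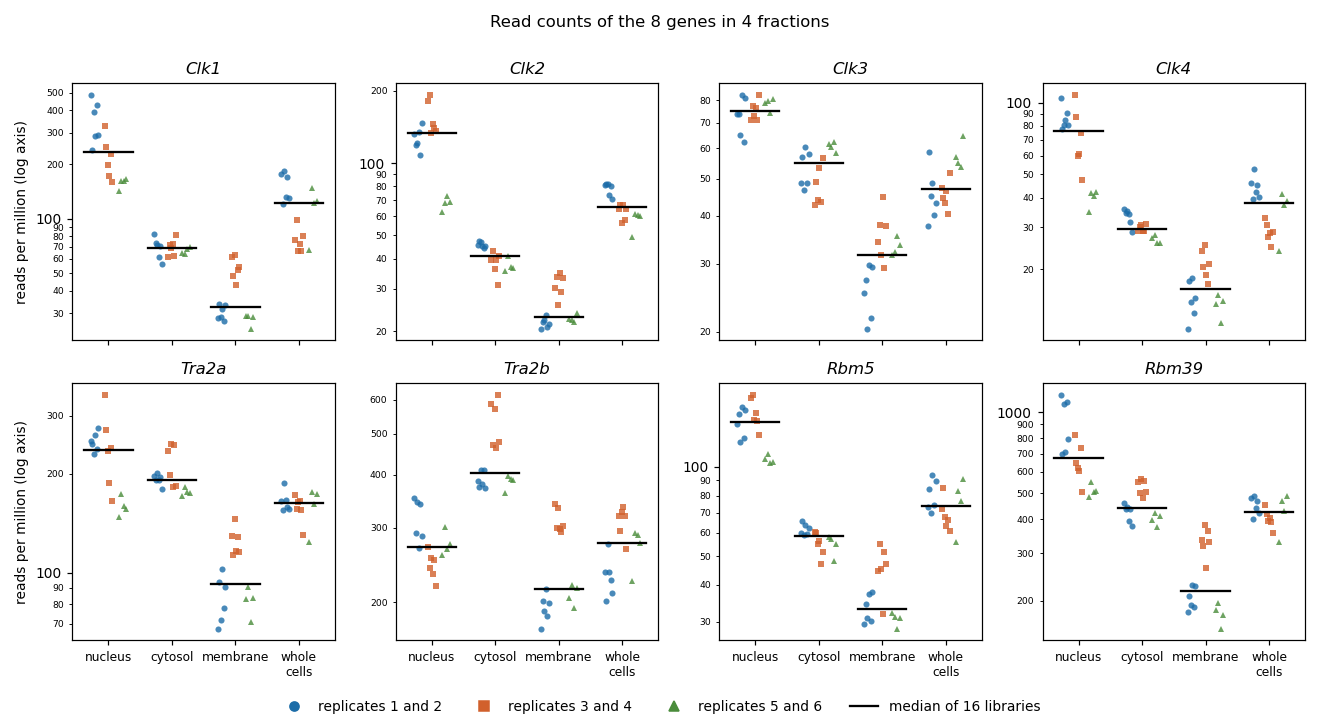
CPM (log axis) of the 8 genes in the nucleus, cytosol, membrane fraction and whole cells, with 1 point per library, colored by pair of replicates, and a black line at the median of 16 libraries. The nuclear points of Clk1 (142 to 487) lie wholly above its cytosolic points (56.3 to 82.5), while the cytosolic points of Tra2b (363 to 617) lie wholly above its nuclear points (219 to 353).

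In the edgeR quasi-likelihood test over 16093 genes, 5 of the 8 were higher in the nucleus than in the cytosol (adjusted p under 0.05 and a log2 difference beyond 0.5), 1 was lower and 2 did not pass. Of all genes, 42.5% were called higher and 21.2% lower, so a nuclear excess was common, and the median log2 difference of all genes was 0.29. The log2 differences were 1.86 ± 0.16 (SE) for Clk1 (adjusted p = 1.22e-16), 1.54 ± 0.10 for Clk2 (adjusted p = 1.52e-21), 1.22 ± 0.07 for Rbm5 (adjusted p = 3.33e-23) and 1.16 ± 0.12 for Clk4 (adjusted p = 1.64e-13). Rbm39 passed with 0.61 ± 0.12 (adjusted p = 5.69e-06), and Tra2b was lower with -0.72 ± 0.10 (adjusted p = 6.42e-09). Clk3 (0.47 ± 0.07, adjusted p = 7.72e-09) missed the size limit, and Tra2a had 0.13 ± 0.10 (adjusted p = 0.204). The median of the 8 was 0.88 against 0.29 for all genes. The test takes the 16 libraries of a fraction as independent, although they carry 6 replicate numbers and levels differed by pair. Nuclear means of Clk1 were 354 CPM in replicates 1 and 2, 222 in replicates 3 and 4 and 158 in replicates 5 and 6. These p-values can therefore be too small.

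The scaling between fractions sets how far these values lie from 0. Without replicate 4, the median of all genes was -0.02 in place of 0.29, and the genes called higher made up 52.3% of the calls in place of 66.7%. Measured from the median of all genes, Clk1 stayed 1.08 to 2.14 higher, Clk2 0.73 to 1.42, Rbm5 0.79 to 0.98 and Clk4 0.45 to 1.15 over 15 alternatives, and the difference of Tra2b from that median stayed between -1.73 and -0.53. Rbm39 was the unstable member, at -0.29 to 0.89 from that median. It lost its call in 10 of the 15 alternatives, with log2 differences by pair of 0.91 (replicates 1 and 2), 0.15 (replicates 3 and 4) and 0.22 (replicates 5 and 6). Clk4 lost its call within replicates 5 and 6, where its log2 difference was 0.45.

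Reads of these genes made up less of the membrane fraction than of the cytosol. Median values there were 32.4 CPM for Clk1, 22.9 for Clk2, 31.6 for Clk3, 16.5 for Clk4, 92.2 for Tra2a, 215 for Tra2b, 33.3 for Rbm5 and 218 for Rbm39, each below the cytosolic median. For Clk4, Tra2a and Tra2b the ranges did not overlap, and the share of all genes without such overlap is not given here. Clk1, Clk4, Tra2a, Tra2b and Rbm39 were called lower, a class that held 12.9% of all genes, with log2 differences of -0.53 ± 0.16, -0.52 ± 0.12, -0.71 ± 0.10, -0.59 ± 0.10 and -0.61 ± 0.12 (edgeR, adjusted p from 0.00247 for Clk1 to 2.21e-09 for Tra2a). Clk2 (-0.38), Clk3 (-0.46) and Rbm5 (-0.31) missed the size limit. The calls of Clk1 and Clk4 were lost in 3 of 15 alternatives each, that of Tra2a in none. The median of all genes was -0.16. With exonic T counts in place of reads, all 8 were called lower, but the median of all genes was then -0.54, and the genes called higher fell from 65.2 to 26.2% of the calls. Mitochondrial RNA made up far more of the membrane libraries (median 46294 CPM for mt-Co1 against 371 in the cytosol), and its part in this scaling was not tested.

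Whole-cell levels were compared over labeling time, since 4sU can itself disturb RNA. None of the 8 genes was called between 20 and 60 min, where 0% of 16858 genes were called, between 20 and 120 min (0.113% called) or between 60 and 120 min (0% called). At an unadjusted p under 0.05 the 3 comparisons held 747, 1656 and 123 genes, and with DESeq2 the middle one had 113 calls, none of them among the 8 genes. The comparison of 120 with 20 min uses the 120 min libraries of replicates 3 and 4, which enter no other result of the main analysis. The largest difference among the 8 was for Clk4 there (log2 difference -0.66 ± 0.19, adjusted p = 0.191). In the same comparison Rbm5 had -0.40 ± 0.15 and Clk1 -0.45 ± 0.26. The comparison of 120 with 60 min uses the replicate 6 libraries that go against their labels. Clk1 had 67.0 CPM at 60 min and 123 CPM at 120 min in replicate 5, and 148 and 125 CPM in replicate 6. With replicate 6 left out, the log2 difference of Clk1 was 0.51 in place of 0.09, that of Clk3 was -0.45 in place of -0.11, and that of Clk4 was 0.27 in place of 0.08. The other genes ran from -0.04 (Clk2) to 0.13 (Rbm5) with replicate 6 and from -0.06 (Clk2) to 0.10 (Rbm5) without it, and none of the 8 was called either way.

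Per base of exon, Rbm39, Tra2a and Clk1 were the most abundant of the 8 in the nucleus. Exonic T counts, scaled to library size as CPM are and given per kilobase of exon, had nuclear medians of 217 for Rbm39, 144 for Tra2a, 106 for Clk1, 42.9 for Tra2b, 39.9 for Clk2, 34.0 for Rbm5, 29.7 for Clk4 and 21.6 for Clk3. The ranges of neighbours in this order overlapped, except that all libraries of Clk1 (75.8 to 236) lay above those of Tra2b (37.7 to 50.2). In the cytosol the medians were 139 for Rbm39, 119 for Tra2a, 71.0 for Tra2b, 37.1 for Clk1, 17.1 for Clk3, 15.0 for Clk2 and Rbm5 alike, and 14.3 for Clk4. There the order of Tra2b and Clk1 was turned, since Tra2b (65.6 to 117) lay above Clk1 (29.7 to 46.2) without overlap. Clk3, Clk2, Rbm5 and Clk4 overlapped with each other in the cytosol.

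Intronic sequence was more abundant, relative to exons, in the nucleus than in the cytosol for all 8 genes. The measure is the number of T bases read in the pooled introns of a gene divided by those read in its exons. The study derived introns from the gaps between annotated exons. A stretch annotated as a retained intron may therefore be missing from the intron counts. Clk4 had ratios of 0.522, 1.30 and 2.06 in the nucleus (lowest, median and highest) and 0.141, 0.417 and 0.815 in the cytosol. Clk1 had 0.502, 1.07 and 1.56 in the nucleus and 0.0925, 0.332 and 0.703 in the cytosol. For these kinases the 2 ranges overlapped, because the pairs of replicates differed as much as the fractions did. Within a culture the nuclear ratio was the higher one for all 8 genes in 16 of 16 cultures.

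The other members had lower ratios. The ratio is not scaled to length, so its order between genes and its percentiles also depend on gene structure. Intron bases are counted here as those outside all annotated exons of the gene. Clk4 has 14240 intron bases and 2058 exon bases with T counts, Clk1 5746 and 1796, Tra2b 12222 and 3268, and Rbm39 26054 and 3158. Nuclear medians were 0.933 for Tra2a, 0.873 for Clk3, 0.770 for both Clk2 and Rbm5, 0.741 for Rbm39 and 0.409 for Tra2b. Cytosolic medians were 0.235 for Rbm5, 0.212 for Tra2a, 0.193 for Clk3, 0.180 for Rbm39, 0.144 for Clk2 and 0.0430 for Tra2b. Ranked among all genes of the same library, Clk4 had median percentiles of 84.2 (nucleus) and 86.4 (cytosol), and Clk1 81.0 and 81.8. Tra2b ranked low, at percentiles 45.4 and 21.3. The whole-cell ratios of Clk4 (median 1.11, or 1.08 without replicate 6) and Clk1 (0.854, or 0.840) ranked at percentiles 90.3 and 88.5, or 90.2 and 88.5 without replicate 6. For Clk1 the whole-cell ratio was above the nuclear one in 9 of 16 cultures, for Clk4, Tra2a and Rbm39 in 8, and for Tra2b in 0.

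**Figure D2:**
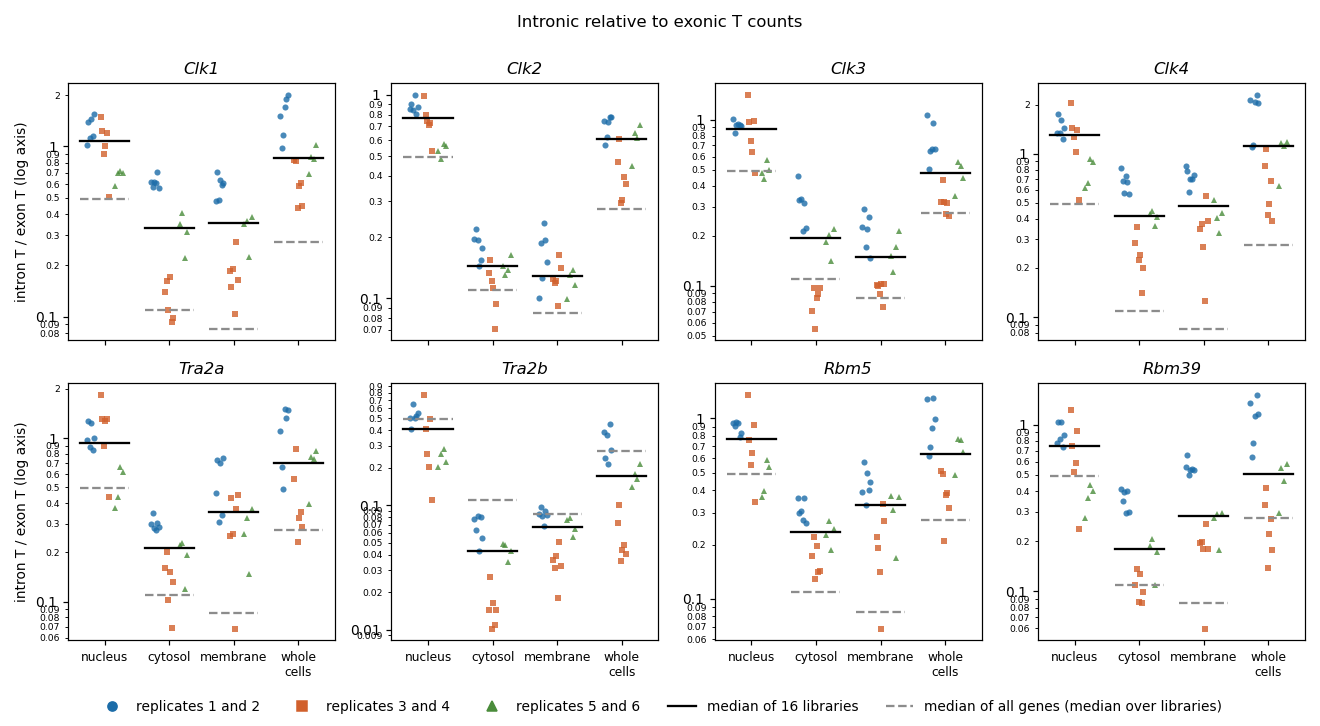
T counts in introns divided by T counts in exons (log axis) for the 8 genes by fraction, with 1 point per library colored by pair of replicates, the median of 16 libraries as a black line and the median of all genes as a dashed gray line. Clk1 and Clk4 lie above the dashed line in all 4 fractions at the median, and Tra2b lies below it in all 4.

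The ratio was higher in the nucleus than in the cytosol for all 8 genes by limma on the log2 scale, which held for 90.3% of 11386 genes tested and so sets none of them apart. The log2 differences were 3.39 ± 0.33 for Tra2b, 2.36 ± 0.15 for Clk2, 2.21 ± 0.24 for Clk3, 2.18 ± 0.27 for Tra2a, 1.79 ± 0.28 for Clk1, 1.74 ± 0.31 for Rbm39, 1.61 ± 0.23 for Rbm5 and 1.53 ± 0.25 for Clk4 (adjusted p from 2.38e-21 for Clk2 to 6.71e-07 for Rbm39). The median of all genes was 2.21, so Clk1, Clk4, Rbm5 and Rbm39 lay below it and Tra2b above it, as they did in each of 14 alternatives. Against the membrane fraction all 8 were again higher, as were 94.2% of all genes, with log2 differences of 1.10 ± 0.31 (Rbm39) to 2.65 ± 0.33 (Tra2b) around an all-gene median of 2.22.

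The cytosolic ratios moved with the pair of replicates. Clk1 had cytosolic medians of 0.613 in replicates 1 and 2, 0.124 in replicates 3 and 4 and 0.332 in replicates 5 and 6, and the median ratio of all genes moved the same way (means 0.154, 0.0567 and 0.104). The nuclear excess of Clk1 on the log2 scale was accordingly 1.05 in the first of these pairs, 3.00 in the second and 1.09 in the last. The cytosolic ratios of Clk1 and of all genes were thus highest in the same pair and lowest in the same pair, and the part of this difference between pairs in the values of Clk1 was not tested.

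Between 20 and 60 min in replicates 3 and 4, the nuclear ratio of all 8 genes was lower at 60 min, but none passed the test (limma, 0.0245% of 12233 genes called, 5799 genes at an unadjusted p under 0.05). The log2 differences ran from -0.51 ± 0.30 for Clk2 to -1.27 ± 0.54 for Tra2b, and the median of all genes was -0.91. With replicate 3 left out, 7 of the 8 and 8349 genes were called. The nuclear 60 min library of replicate 3 had a Clk4 ratio of 1.40, against 0.522 to 0.666 in the other 60 min libraries.

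The share of new RNA was higher in the nuclear introns of these genes than in their exons, and Tra2b stood apart from the others. The share of new RNA is the T-to-C rate of a gene divided by the conversion rate of its library, so 1 means that all of it was made during labeling, and noise can take it above 1. In nuclear introns of Tra2b the share was 0.452 and 0.523 at 15 min, 0.787, 0.879, 0.916 and 1.02 at 20 min, and 0.960 and 1.06 at 30 min. Nuclear introns of Tra2a had 0.0598 and 0.100 at 15 min, 0.133, 0.167, 0.174 and 0.191 at 20 min, and 0.264 and 0.332 at 30 min. The lowest 20 min value of Tra2b was thus above every value of Tra2a up to 60 min, where Tra2a had 0.467, 0.646, 0.697 and 0.728. For Clk1 the nuclear introns had 0.189, 0.267, 0.364 and 0.366 at 20 min and 0.899, 0.934, 0.961 and 1.07 at 60 min. For Clk4 these values were 0.165, 0.190, 0.264 and 0.377, and then 0.873, 0.879, 1.01 and 1.09.

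Exons of the same nuclear libraries had lower shares. Clk1 exons had shares of 0.0715, 0.0977, 0.145 and 0.163 at 20 min and 0.452, 0.655, 0.670 and 0.753 at 60 min. Tra2b exons had 0.0510, 0.0825, 0.130 and 0.213 at 20 min and 0.233, 0.289, 0.293 and 0.396 at 60 min, far below its introns. Tra2a exons, at 0.0968, 0.114, 0.139 and 0.154 after 20 min, overlapped the shares of its introns.

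Within nuclear libraries at 20 min, the intron share exceeded the exon share for 7 of the 8 genes by limma, as it did for 76.3% of 12181 genes. The mean difference was 0.781 ± 0.033 (SE) for Tra2b, 0.224 ± 0.040 for Clk3, 0.198 ± 0.031 for Rbm5, 0.177 ± 0.034 for Clk1, 0.177 ± 0.028 for Clk2, 0.168 ± 0.033 for Rbm39 and 0.111 ± 0.033 for Clk4 (adjusted p from 1.51e-09 for Tra2b to 0.0079 for Clk4). Tra2a did not pass (0.0406 ± 0.029, adjusted p = 0.206), although on the log2 scale of share + 0.01 it did, with 0.39. The median of all genes was 0.232. At 60 min all 8 passed, as did 94.9% of all genes, and the differences of 0.237 (Tra2a), 0.303 (Clk4), 0.333 (Clk1), 0.338 (Rbm39), 0.369 (Clk2), 0.429 (Rbm5) and 0.540 (Clk3) lay below the all-gene median of 0.592. Only Tra2b, at 0.790, lay above it.

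**Figure D3:**
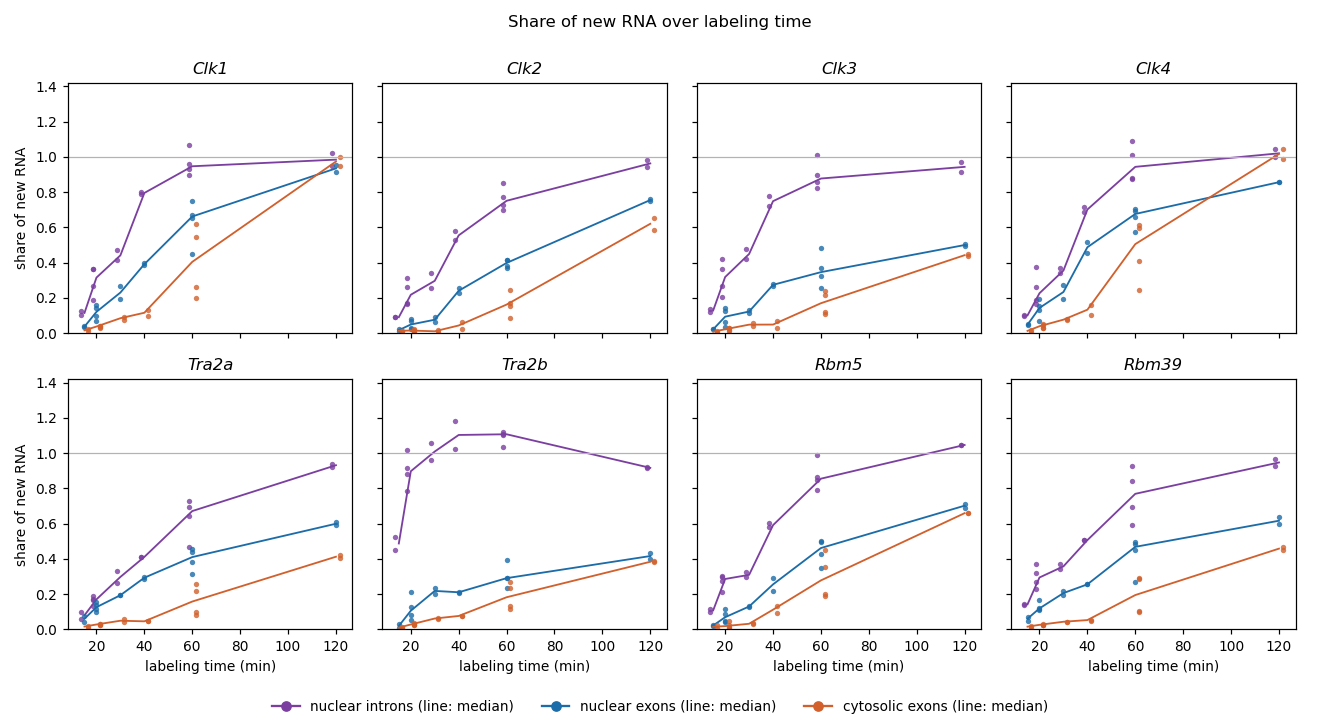
Share of new RNA against labeling time (min) for nuclear introns (purple), nuclear exons (blue) and cytosolic exons (orange) of the 8 genes, with 1 point per library, lines through the medians and a gray line at a share of 1. The introns of Tra2b are at 0.787 to 1.02 by 20 min, whereas those of Tra2a are at 0.133 to 0.191.

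Exons of the nucleus were newer than those of the cytosol in most cultures. Cytosolic exons of Clk1 had shares of 0.0303, 0.0377, 0.0385 and 0.0394 at 20 min and 0.261, 0.199, 0.618 and 0.549 at 60 min in replicates 3, 4, 5 and 6. Replicates 5 and 6 were higher than replicates 3 and 4 at 60 min in the cytosol for all 8 genes. The median of all genes moved the same way, with 0.0922, 0.0978, 0.219 and 0.192 in replicates 3, 4, 5 and 6, so this sets none of the 8 apart. By 120 min the cytosolic exons of Clk1 were at 0.950 and 0.999 and those of Clk4 at 0.990 and 1.04, where Tra2b had 0.380 and 0.388 and the median of all genes was 0.389 and 0.392. Clk2 (0.586 and 0.656), Rbm5 (0.659 and 0.660), Rbm39 (0.450 and 0.467), Clk3 (0.436 and 0.450) and Tra2a (0.404 and 0.421) lay between. These 120 min values come from replicates 5 and 6 alone, the pair with the higher cytosolic shares at 60 min.

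At 20 min none of the 8 genes passed between nucleus and cytosol by limma on the share (3.78% of 14235 genes called, 2855 genes at an unadjusted p under 0.05). The mean differences were 0.0366 (Clk2) to 0.103 (Rbm39), and on the log2 scale, where small shares weigh more, all 8 were called together with 8031 genes in all. The fit on the share uses 1 spread for all labeling times, so the SE of Clk1 was 0.081 at both 20 and 60 min. The SD of the all-gene median cytosolic share was 0.00305 at 20 min and 0.0646 at 60 min. The test on the share therefore cannot show that the fractions were alike at 20 min. With each culture as a block, 1193 genes and none of the 8 were called. At 60 min 7 of the 8 were higher in the nucleus, against 38.7% of all genes. The differences were 0.233 ± 0.048 for Tra2a, 0.231 ± 0.051 for Clk2, 0.230 ± 0.058 for Rbm39, 0.226 ± 0.081 for Clk1, 0.192 ± 0.070 for Clk4, 0.186 ± 0.039 for Clk3 and 0.115 ± 0.039 for Tra2b (adjusted p from 0.000206 for Tra2a to 0.025 for Clk4). Rbm5 missed the threshold (0.143 ± 0.063, adjusted p = 0.0629), and with each culture as a block it passed. The median of all genes was 0.0708. The calls of Tra2a, Clk2 and Clk3 stood in all 10 alternatives, those of Clk1, Clk4 and Tra2b in 5 of 10. Between membrane and cytosol none of the 8 genes passed at 60 min (limma, 7.87% of all genes called, 1965 genes at an unadjusted p under 0.05). The differences ran from -0.0424 ± 0.051 for Clk2 to 0.0791 ± 0.063 for Rbm5.

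The exons of Clk1 and Clk4 had the shortest apparent half-lives of the 8 genes in every fraction, although at the membrane Rbm5 lay within their errors. An apparent half-life was taken from a curve of 1 minus an exponential decay with a delay of 5 min, fitted to the shares of 16 cultures. It is a description with no test, it does not model the order of compartments, and its error is a jackknife SE over cultures. That error does not measure how far the shares lie from the curve. In nuclear exons it was 42.6 ± 3.1 min for Clk4 and 45.1 ± 4.2 min for Clk1, at percentiles 5.47 and 6.24 of 14856 genes. Rbm5 (73.9 ± 5.1 min), Rbm39 (75.8 ± 5.9), Clk2 (78.5 ± 7.2) and Tra2a (78.9 ± 4.2) came next, within their errors of each other. Clk3 had 98.4 ± 9.4 min and Tra2b 116 ± 12 min, and the median of all genes was 134 min.

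The order held at its fast end in the cytosol. Cytosolic exons of Clk4 had 63.8 ± 12.4 min, Clk1 70.4 ± 15.2, Rbm5 107 ± 17, Clk2 144 ± 41, Rbm39 167 ± 25, Clk3 180 ± 27, Tra2b 187 ± 18 and Tra2a 191 ± 29, with an all-gene median of 199 min. The values from Clk2 to Tra2a lay within their errors of each other. The root mean square distance of the cytosolic shares from the curve was largest for Clk4 (0.170) and Clk1 (0.169) and smallest for Tra2b (0.0430). The curves of Clk4 and Clk1 thus lay farther from their shares than those of the other genes. Without replicate 5, the cytosolic values were 75.3 min for Clk4 and 86.5 min for Clk1. In whole cells Clk4 had 56.2 ± 8.7 min and Clk1 59.5 ± 12.5 min with replicate 6, and 59.4 and 63.5 min without it, against an all-gene median of 203 min with it and 200.4 min without it. At the membrane Clk4 had 69.3 ± 10.8 min, Clk1 80.7 ± 14.8 min and Rbm5 83.7 ± 14.9 min, against 243 min for all genes.

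Intronic RNA had another order. Nuclear introns of Tra2b had an apparent half-life of 6.05 ± 1.01 min (percentile 1.64 of 11380 genes) and those of Tra2a 42.0 ± 3.1 min (percentile 83.7). Clk1 (21.6 ± 2.1), Clk3 (22.9 ± 1.9) and Clk4 (24.2 ± 2.7) lay close to the all-gene median of 24.0 min. Rbm5 (27.3 ± 2.4), Rbm39 (30.7 ± 2.7) and Clk2 (32.5 ± 2.4, percentile 70.6) lay above it. The deposited T counts pool the counted introns of a gene, so a slow intron and its fast neighbours enter as 1 value. An intron annotated as retained may not be among them. The value of a single detained intron could not be read from these counts.

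**Figure D4:**
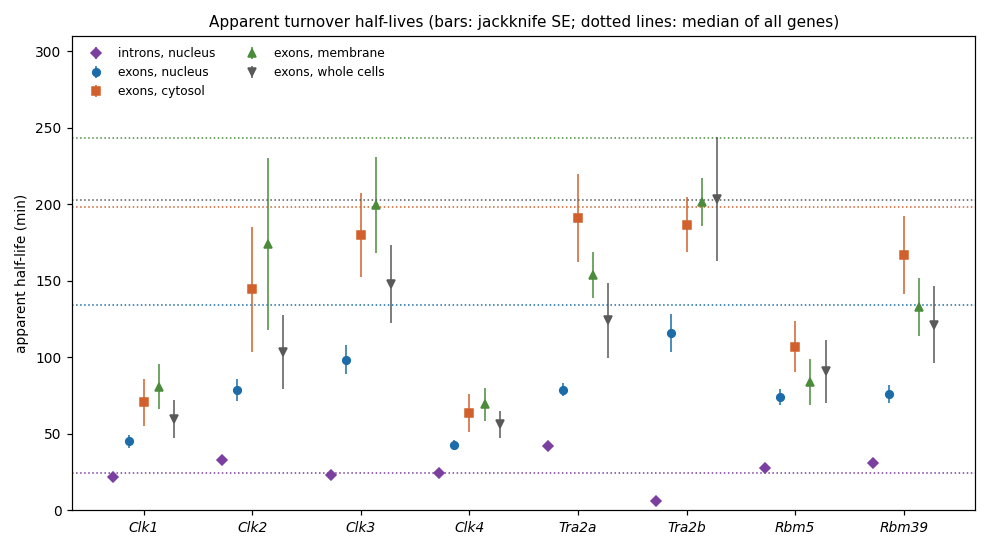
Apparent half-lives in min of nuclear introns and of exons in the nucleus, cytosol, membrane fraction and whole cells for the 8 genes, with jackknife SE over 16 cultures as bars and the median of all genes as a dotted line of the same color. Clk1 and Clk4 have the shortest exon half-lives in each fraction (42.6 to 80.7 min), and Tra2b has the shortest intron half-life (6.05 min).

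Single exons were then compared with the rest of their gene, as the ratio of the T count of an exon to that of the other exons. Of 99004 exon entries tested by limma, 1.69% were lower in the nucleus than in the cytosol and 1.06% were higher (adjusted p under 0.05 and a log2 difference beyond 1). Of 120 entries in the 8 genes, 7 were called. Exon 4 of Clk1 was lower in the nucleus by 1.54 ± 0.17 on the log2 scale (adjusted p = 1.01e-08), and exon 5 by 1.10 ± 0.09 (adjusted p = 1.97e-11). Exon 4 of Clk2, held in 2 entries that overlap and share 1 value, was lower by 1.26 ± 0.10 (adjusted p = 2.42e-11). In Rbm39, exon 2 (chr2:156179177-156179240) was lower by 1.26 ± 0.16 and exon 3 (chr2:156177336-156177385) by 1.21 ± 0.18, and the last exon of the short transcript Rbm39-202 (chr2:156174774-156174974, 201 bases, minus strand) was higher by 1.23 ± 0.25 (adjusted p = 0.000142). Its call was lost within replicates 1 and 2 (0.77) and within replicates 5 and 6 (0.97), and the value was 1.88 within replicates 3 and 4. The calls of Rbm39 exons 2 and 3 and of Clk1 exon 5 were lost within replicates 5 and 6. Exon 4 of Clk2 had too few T counts to be tested in that pair. No exon of Clk3, Clk4, Tra2a, Tra2b or Rbm5 was called. Exon 4 of Clk4 had too few T counts for this test.

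Exons near the 5′ end were as a rule lower in the nucleus than those near the 3′ end. In Clk1 the median log2 difference was -0.73 over the 5′ group of exons and 0.29 over the 3′ group, and in Clk2 it was -0.57 and 0.01. Rbm5 had -0.56 and 0.07, Clk4 -0.63 and 0.15, and Rbm39 -0.41 and -0.22, whereas Tra2b had 0.02 and 0.05. The called exons of Clk1, Clk2 and Rbm39 that were lower all lie in the 5′ group. Position in the transcript therefore moves with these calls, and its part was not tested in this comparison.

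An inclusion index was added after these values were seen, because neighbours of an exon share its position. It is the T count per T base of an exon divided by the mean of the same quantity in the exons before and after it, and was compared between nucleus and cytosol of the same culture. The exons of Clk1, Clk2 and Rbm39 were chosen because they were called above on the same T counts, so their index is a description with no test. For Clk3 and Clk4 a two-sided exact paired permutation test was run, with the 16 cultures as units. These carry 6 replicate numbers, each used at several labeling times, and the index differed by pair. Cytosolic means of Clk4 were 33.4% in replicates 1 and 2, 60.9% in replicates 3 and 4 and 45.7% in replicates 5 and 6. Cultures of a pair may thus not be independent, and the p-values can then be too small. Clk1 exon 4 had 28.1, 37.2 and 71.4% in the nucleus (lowest, median and highest of 16 cultures) and 36.7, 62.6 and 78.5% in the cytosol. It was lower in the nucleus in 15 of 16 cultures, with means of 42.2% ± 13.0 (SD) and 61.9% ± 12.8. Clk2 exon 4 had a nuclear mean of 58.9% ± 11.3 and a cytosolic mean of 92.8% ± 15.3, a difference of -33.9 percentage points that was seen in 16 of 16 cultures. In replicates 5 and 6 alone, the means were 56.3% (nucleus) and 62.5% (cytosol) for Clk1, and 71.3% and 98.9% for Clk2. In Clk2 the exon was thus close to full coverage in the cytosol, while in Clk1 it was not. Exon 4 of Clk1 and Clk4 is 93.4% identical, against 64.1% in exon 3 and 76.1% in exon 5. Short reads of exon 4 can therefore be ambiguous more often than those of its neighbours. The part of this in the index of Clk1 and Clk4 was not tested.

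Clk3 exon 4 showed a smaller difference in this index, with 80.5% ± 12.8 in the nucleus and 92.6% ± 9.73 in the cytosol, and was lower in the nucleus in 12 of 16 cultures (exact p = 0.00858). Clk4 exon 4 had 39.6% ± 17.5 in the nucleus and 46.8% ± 17.2 in the cytosol (exact p = 0.0336, lower in 11 of 16 cultures). That difference did not pass without replicate 1, 2, 3 or 4, and within replicates 5 and 6 it was 2.82 percentage points the other way. The exon of Rbm39-202, set against the exons on both sides of it, had 12.1% ± 6.28 in the nucleus and 2.96% ± 1.63 in the cytosol, higher in the nucleus in 16 of 16 cultures. In replicates 5 and 6 alone its means were 6.36% and 2.13%. This exon lies between exons 3 and 4 of the longer transcripts, so reads of an unspliced intron would fall on it too and cannot be told from its use. The index of exon 4 was similar at the membrane and in the cytosol. Its means were 62.5 and 61.9% for Clk1, 97.0 and 92.8% for Clk2, 94.4 and 92.6% for Clk3 and 46.4 and 46.8% for Clk4. The exon of Rbm39-202 had a mean of 4.27% at the membrane, above its 2.96% in the cytosol.

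**Figure D5:**
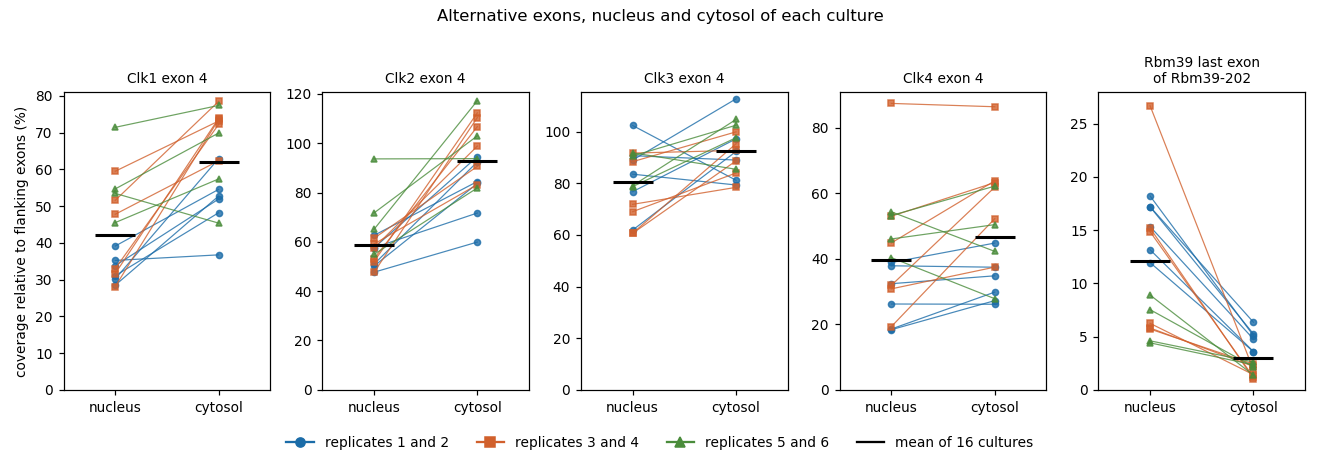
T counts per T base of exon 4 of Clk1 to Clk4 and of the last exon of Rbm39-202, in percent of the mean of the flanking exons (0% at the base of each axis, axes differ in height), with a line joining nucleus and cytosol of each of 16 cultures, colored by pair of replicates, and black bars at the means. The nuclear mean is below the cytosolic mean for exon 4 of Clk1 (42.2 and 61.9%) and Clk2 (58.9 and 92.8%), and above it for the Rbm39 exon (12.1 and 2.96%).

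The genes with the most similar levels over 64 libraries were found by the root mean square difference of log2 CPM, each gene centred on its own mean, among 9137 genes. For Clk1 these were Eif4a2 (0.265) and Ptbp2 (0.286), and for Clk2 Dus3l (0.192) and Hars2 (0.201). Clk3 was closest to Zranb1 (0.150) and Narfl (0.162), and Clk4 to Ubp1 (0.177) and Srek1 (0.178). Tra2a was closest to Arl14ep (0.145) and Hnrnpa2b1 (0.154), Tra2b to Ube2d3 (0.113) and Dnajb6 (0.128), Rbm5 to Caprin2 (0.160) and Rev1 (0.174), and Rbm39 to Gnl3 (0.128) and Srsf6 (0.174). Among the 8, the closest pair was Tra2a and Rbm39 (0.247), and the farthest was Clk1 and Tra2b (1.11).

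Other splicing regulators, among them SR proteins, SR protein kinases, cyclin L genes and Luc7-like genes, were read from the same tests for context. Of 35 tested, 12 were higher in the nucleus than in the cytosol (42.5% of all genes were) and 3 were lower (21.2% of all genes), with a median log2 difference of 0.40 against 0.29 for all genes. The highest was Ccnl2, a cyclin L gene, at 2.31 ± 0.12, above Clk1, and the lowest was the cold-inducible Rbm3 at -1.30 ± 0.11. Their intron to exon ratio was higher in the nucleus for 34 of 35, where 90.3% of all genes were, from 0.11 ± 0.42 for Srsf12 to 4.27 ± 0.33 for Srsf1. At 60 min 22 of 35 had newer exons in the nucleus than in the cytosol, where 38.7% of all genes did, the largest difference being that of Srsf6 (0.290 ± 0.042).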

How the data were processed

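RNA was measured by poly(A) selected, strand-specific sequencing after 4sU labeling (SLAM-seq) in 72 libraries. The authors aligned reads with STAR 2.7.6 to GRCm38, and the deposited read counts per gene come from HTSeq 0.11.1. The authors also deposited T counts and converted (T-to-C) counts per exon, per gene exons and per gene introns pooled, and the ratio of converted to all T with its corrected fraction of new RNA after removal of SNPs and division by a conversion rate from a binomial mixture model. The largest difference between the recomputed and the deposited fraction was 1.21e-13. Deposited RSEM 1.3.3 values were not used.

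Reads on no gene or on several made up 6.26 to 35.9% and were left out of library sizes. Read counts were tested with edgeR 4.0.16 (quasi-likelihood, TMM) in R 4.3.3. T ratios, as log2 with a pseudocount of 1 and a minimum mean T count of 400, and shares were tested with limma 3.58.1. P-values were adjusted by Benjamini-Hochberg over all features tested. The main tests between fractions did not model the pairs of replicates. Their p-values and SE can be too small where libraries of a pair are not independent. Replicates were passaged independently and labeled separately, per the study's methods. The 4 fractions of a culture came from the same plates, which pairs them by number, and 13 of 16 nuclear and cytosolic pairs had correlated deviations over 0.1 (median 0.322). DESeq2 1.42.0, other filters, leaving out a replicate and single pairs of replicates were alternatives. Tested on simulated counts for nucleus and cytosol (15846 genes, 200 with a log2 change of 1), edgeR found 163 of them and made 5 false calls. For whole cells at 60 against 20 min (log2 change of 2), edgeR found 151 of 200 with 8 false calls. For the intron to exon ratio between nucleus and cytosol (log2 change of 1), limma found 91 of 200 with 3 false calls. For the exon share between nucleus and cytosol at 60 min (change of 0.3), limma found 165 of 200 with 11 false calls. Smaller changes, or changes in more than 200 genes, were not tested. The simulated libraries held no differences between pairs of replicates or between cultures, unlike the data. These counts of false calls may therefore not carry over to the real comparisons. Exon IDs were matched to GENCODE M21 for 99.7% of 222511 entries.

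The members, the list of other splicing regulators and the tests were chosen with earlier results of these data known. Named were all 8 genes, the 2 nearest genes of each, every called exon and the highest and lowest of the other regulators. Depth limits the precision of low T counts, and conversion rates carry their own error, which the tests do not include.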

Additional observations from a re-analysis of the deposited data

Results flagged for a closer look

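Among 256 groups of 4 libraries with the same fraction and time, 12 values stood apart from the other 3. Chance gives about 1 in 20, which is close to this rate, so the number of such values is not unusual. The groups also mix pairs of replicates. The nuclear 60 min library of replicate 3 had high intron to exon T ratios for Clk3 (0.981 against 0.439 to 0.476 in the others), Clk4 (1.40 against 0.522 to 0.666), Tra2a (1.31 against 0.374 to 0.436) and Rbm5 (0.922 against 0.342 to 0.398). The nuclear 20 min library of replicate 3 had a ratio of 1.41 for Clk3 (0.926 to 0.962 in the others) and an exon share of 0.167 for Rbm39 (0.111 to 0.120). Clk1 had 148 CPM in the whole-cell library labelled 60 min of replicate 6 (66.3 to 79.9 in the others) and 80.9 CPM in the cytosolic 60 min library of replicate 4 (62.4 to 64.4). Clk2 had a cytosolic intron share of 0.699 at 60 min in replicate 5 (0.594 to 0.605) and a membrane ratio of 0.234 at 20 min in replicate 2 (0.119 to 0.126). In the membrane 20 min library of replicate 4, the exon share of Clk3 was 0.0487 (0.0224 to 0.0259) and the intron share of Rbm5 was 0.156 (0.0923 to 0.0933).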

How the results depend on the processing

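Of 120 values for the 8 genes between nucleus and cytosol over 15 alternatives, 109 kept direction and side of the threshold and 11 lost the call, 10 of them of Rbm39. The cause of the changes below was not tested. Between membrane and cytosol, 5 of the 8 were called, against 2 within replicates 1 and 2, 3 within replicates 3 and 4, 8 within replicates 5 and 6, 8 with exon T counts (10708 genes in all), and 3 to 7 with 1 replicate left out. For whole-cell levels without a filter on low counts, 42 genes were called between 20 and 60 min, 227 between 20 and 120 min and 49 between 60 and 120 min, none of them among the 8. For 20 against 120 min there were 19 calls, against 113 with DESeq2, 31 with the replicate block and 0 to 77 with 1 replicate left out.

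For the nuclear intron to exon ratio at 60 against 20 min, 3 genes were called, against 9 with the replicate block, 7 at a minimum mean T of 100, 0 at 2000, and 0 to 8349 (0 to 7 of the 8) with 1 replicate left out. For exon shares between nucleus and cytosol at 20 min, the log2 scale gave 8 of the 8 (8031 genes), the replicate block by culture 1193 genes, and leaving out 1 replicate 0 to 1 of the 8 (19 to 2598 genes). At 60 min the log2 scale gave 4 of the 8, and leaving out 1 replicate gave 3 to 8 (3101 to 8090 genes). Between membrane and cytosol at 60 min, the log2 scale gave 649 genes and leaving out 1 replicate 721 to 1300.

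For exon usage, 11 entries of the 8 genes (5027 in all) were called within replicates 3 and 4, 2 (1236) within replicates 5 and 6, 3 (936) at a minimum mean T of 2000, and 5645 in all at a minimum of 100. The median cytosolic half-life of the 8 was 141 to 189 min with 1 replicate left out. The inclusion index of Clk4, added after the data were seen, was 2.82 percentage points higher in the nucleus within replicates 5 and 6. With the replicate block by culture, Rbm5 gained its call in exon share at 60 min, and the number of the 8 called was the same in the other comparisons between fractions.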
